A study of Mus musculus with 14 samples.

Results

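The adipose tissue hormones on the array were Adiponectin (Adipoq), Leptin (Lep), Resistin (Retn), Chemerin (Rarres2) and Pref-1 (Dlk1). They were chosen by their Entrez gene identifiers as circulating products of fat tissue, and they make up 5 of the 111 analytes measured. Serum came from male C57BL/6JNarl mice aged 8 weeks that carried full-thickness skin wounds on the back. NP mice were treated under a dressing with negative pressure and AP mice with a wet dressing at atmospheric pressure. The 7 groups were NP 0.5 h, NP 2 h and NP 16 h, and AP 0.5 h, AP 2 h, AP 16 h and AP 0 h, the last being the control of the study, with 2 samples in each group and 14 in all. No genotype was altered in any group.

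Fat cells release hormones into the blood that report on energy stores and tune the response of other organs to insulin. Adiponectin is made almost wholly by fat cells and makes tissues more sensitive to insulin, and Leptin tells the hypothalamus how much fat is stored. Resistin, which in mice is made by fat cells, opposes insulin, Chemerin is a chemoattractant for macrophages and dendritic cells that is also made in the liver, and Pref-1 is a surface protein of preadipocytes whose shed ectodomain holds back fat cell formation.

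Each membrane of the antibody array was probed with serum portions of 20 µL from a group, combined to 100 µL. The methods describe array values as means of duplicates over independent experiments, with a few mice at each time, but do not say which animals or experiments the 2 samples of a group stand for. The p-values below therefore rest on the scatter of 2 membranes per group, and how much of it is technical was not tested. A comparison of 2 with 2 samples cannot give an exact two-sided permutation p below 0.333, and the tests below are limma fits over all analytes with Benjamini-Hochberg adjustment.

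The membranes differed in brightness between groups. The Reference Spots, positive controls printed on each membrane, had a mean raw intensity of 165561 at AP 0 h and were 3.78 to 9.18 times dimmer in the other groups. Every membrane of a group shared that brightness, so membrane brightness and group cannot be told apart. For this reason each value is given on a pair of scales. The normalized intensity is the deposited value, which evens out only the 2 samples of a group. Reference scaling divides the raw intensity of an analyte by the mean of its membrane's Reference Spots, and is given here as a percentage of that mean. An analyte was called above the negative control when it was brighter than the negative control spot of its own membrane. Adiponectin, Resistin, Chemerin and Pref-1 lay above it in all 14 samples, and Leptin in 10 of them. The 8 plasma proteins looked at as a check of serum, among them Ahsg (fetuin A) and Rbp4 (the retinol carrier), lay above it in every sample. From 66 (the second AP 16 h sample) to all 111 analytes of a sample lay above it, so this criterion alone does not identify serum.

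Adiponectin was the brightest of the members at every time except NP 2 h, where Resistin was brighter. Antibodies differ in affinity, so brightness does not order the proteins by amount. At 2 h, Adiponectin read 9169 and 11842 in NP serum, against 29551 and 32251 in AP serum. The groups did not overlap, the NP samples being the lower ones, with a log2 difference of -1.57 ± 0.10 (SE, limma adjusted p = 5.9e-10). As a share of the Reference Spots, the NP samples gave 39.0% and 50.4% and the AP samples 87.3% and 95.3%, a log2 difference of -1.04 ± 0.10 (limma adjusted p = 1.6e-07). Adiponectin was therefore 2.96-fold lower in NP than in AP serum on the normalized scale and 2.06-fold lower on the reference scale. At 0.5 h the hormone read 29496 and 31370 in NP serum and 26513 and 30828 in AP serum, and the groups overlapped (log2 difference 0.09, 95% interval -0.12 to 0.30, limma adjusted p = 0.46). On the reference scale the NP samples, at 67.9% and 72.2%, lay below the AP samples, at 82.5% and 95.9% (log2 difference -0.35, limma adjusted p = 0.014). At 16 h the NP samples read 11320 and 11073 and the AP samples 16876 and 16985 (log2 difference -0.60, limma adjusted p = 8.2e-05). On the reference scale the shares at 16 h were 63.0% and 61.6% in NP serum and 66.6% and 67.0% in AP serum (log2 difference -0.10, 95% interval -0.31 to 0.11, limma adjusted p = 0.46). The 2 h difference was thus called on both scales, whereas the 16 h difference was called only on the normalized one.

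Leptin had the largest log2 difference of the 5 members between NP and AP serum at 0.5 h, on the normalized and on the reference scale. At that time it read 653 and 821 in NP serum, against 152 and 173 in AP serum. The 2 NP samples were the highest Leptin values of all 14 samples, and they were 7.14 and 9.89 times their negative controls. The log2 difference was 2.17 ± 0.34 (SE), a 4.51-fold higher value (limma adjusted p = 8.0e-05). On the reference scale Leptin reached 1.50% and 1.89% in NP serum and 0.473% and 0.538% in AP serum, a log2 difference of 1.74 ± 0.34 (limma adjusted p = 7.2e-04). At 2 h the values were 77.3 and 106 in NP serum and 84.9 and 96.0 in AP serum, and the groups overlapped (log2 difference 0.00, 95% interval -0.72 to 0.73, limma adjusted p = 0.99). The reference shares at 2 h did not overlap, at 0.329% and 0.451% in NP serum and 0.251% and 0.284% in AP serum, but the log2 difference of 0.53 did not pass (95% interval -0.19 to 1.26, limma adjusted p = 0.17). Of the 2 h values, the first NP and the first AP sample were only 1.25 and 1.27 times their negative controls, so a moderate difference in Leptin was not detectable at 2 h on these scales. At 16 h no Leptin value lay above its negative control, with 57.0 and 68.4 in NP serum beside controls of 93.0 and 76.3, and 99.1 and 139 in AP serum beside controls of 201 and 296. No fold is given for Leptin between NP and AP at 16 h.

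**Figure D1:**
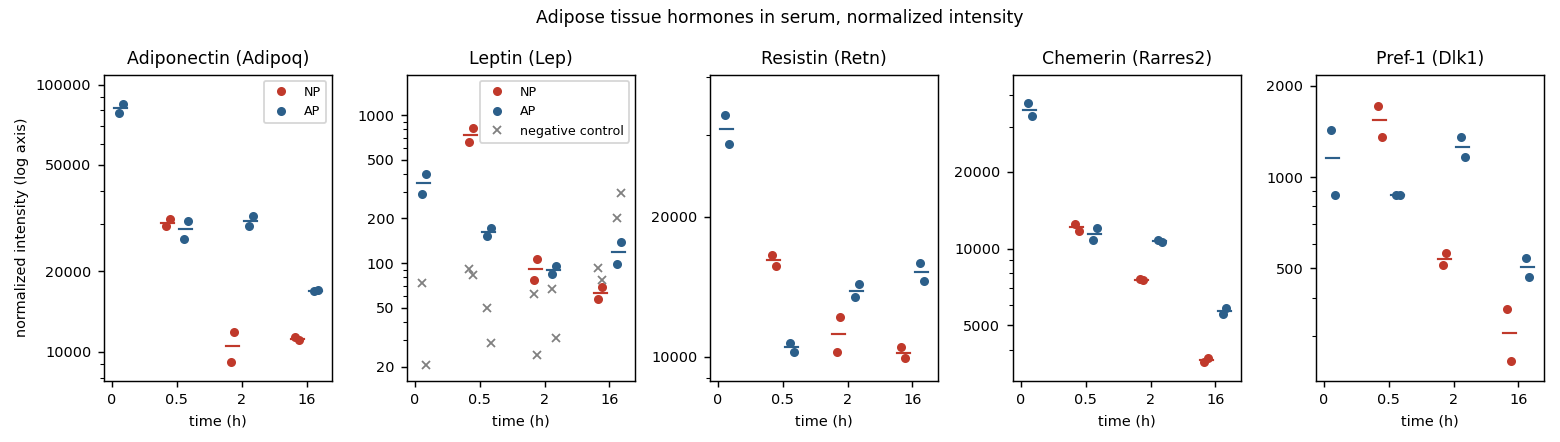
Normalized intensity (log axis, each panel with its own range) of the 5 hormones by time, NP in red and AP in blue, 1 point per sample and a bar at the mean of 2. The Leptin panel also shows the negative control of each membrane as crosses. The NP points for Leptin at 0.5 h, 653 and 821, stand above all others, and the NP points for Adiponectin at 2 h, 9169 and 11842, lie below the AP points.

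Resistin changed its order between NP and AP with the scale. At 0.5 h it read 16560 and 15686 in NP serum, against 10706 and 10226 in AP serum. These groups did not overlap, with a log2 difference of 0.62 ± 0.09 (SE, limma adjusted p = 3.5e-05). On the reference scale the shares were 38.1% and 36.1% in NP serum and 33.3% and 31.8% in AP serum, a log2 difference of 0.19 that did not pass (limma adjusted p = 0.13). At 2 h Resistin read 10221 and 12194 in NP serum and 13413 and 14334 in AP serum (log2 difference -0.31, limma adjusted p = 0.0042), a call that was lost without the first NP sample (-0.19, limma adjusted p = 0.074). Set over the Reference Spots, the order at 2 h turned round, with 43.5% and 51.9% in NP serum and 39.6% and 42.3% in AP serum (log2 difference 0.21, limma adjusted p = 0.042). At 16 h it read 10465 and 9925 in NP serum and 15879 and 14541 in AP serum (log2 difference -0.58, limma adjusted p = 4.0e-05), but 58.3% and 55.3% against 62.7% and 57.4% of the Reference Spots, where the groups overlapped and the difference of -0.08 did not pass (limma adjusted p = 0.50).

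On the normalized and reference scales, Chemerin gave the same calls as Adiponectin at 0.5 h and 16 h, but at 2 h only on the normalized scale. At 2 h it read 7598 and 7512 in NP serum, against 10771 and 10592 in AP serum, a log2 difference of -0.50 ± 0.08 (SE, limma adjusted p = 2.0e-05). As a share of the Reference Spots it was 32.4% and 32.0% in NP serum and 31.8% and 31.3% in AP serum (log2 difference 0.03, 95% interval -0.14 to 0.19, limma adjusted p = 0.76). At 0.5 h the 12499 and 11757 of NP serum overlapped the 10828 and 12014 of AP serum (limma adjusted p = 0.36), whereas the reference shares of 28.8% and 27.1% lay below the 33.7% and 37.4% of AP serum (log2 difference -0.35, limma adjusted p = 0.0022). At 16 h Chemerin had its lowest values, 3599 and 3717 in NP serum and 5541 and 5846 in AP serum, 1.56-fold lower under NP (limma adjusted p = 3.1e-06). The corresponding shares, 20.0% and 20.7% in NP serum and 21.9% and 23.1% in AP serum, gave a log2 difference of -0.14 that did not pass (limma adjusted p = 0.18).

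Pref-1, the preadipocyte factor, was dimmer than Adiponectin, Resistin and Chemerin in every sample. At 2 h it read 515 and 561 in NP serum, against 1354 and 1162 in AP serum. The groups did not overlap, and Pref-1 was 2.33-fold lower under NP (log2 difference -1.22 ± 0.27 (SE), limma adjusted p = 5.8e-04). On the reference scale the shares at 2 h were 2.19% and 2.39% in NP serum and 4.00% and 3.43% in AP serum (log2 difference -0.70, limma adjusted p = 0.030). At 0.5 h Pref-1 read 1718 and 1354 in NP serum and 872 and 871 in AP serum, a log2 difference of 0.81 (limma adjusted p = 0.022). The reference shares of 3.95% and 3.12% in NP serum still lay above the 2.71% and 2.71% of AP serum, but the log2 difference of 0.37 did not pass (95% interval -0.20 to 0.95, limma adjusted p = 0.35). The normalized call at 0.5 h was lost when the first or the second AP sample was left out (limma adjusted p = 0.089 and 0.088) and without the first NP sample (limma adjusted p = 0.16). At 16 h Pref-1 read 367 and 248 in NP serum and 540 and 467 in AP serum (log2 difference -0.74, limma adjusted p = 0.030), and the call was lost without either AP sample (limma adjusted p = 0.15 and 0.056) or without the second NP sample (limma adjusted p = 0.23). Its reference shares at 16 h, 2.04% and 1.38% in NP serum and 2.13% and 1.84% in AP serum, overlapped and gave a log2 difference of -0.24 that did not pass (limma adjusted p = 0.50).

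**Figure D2:**
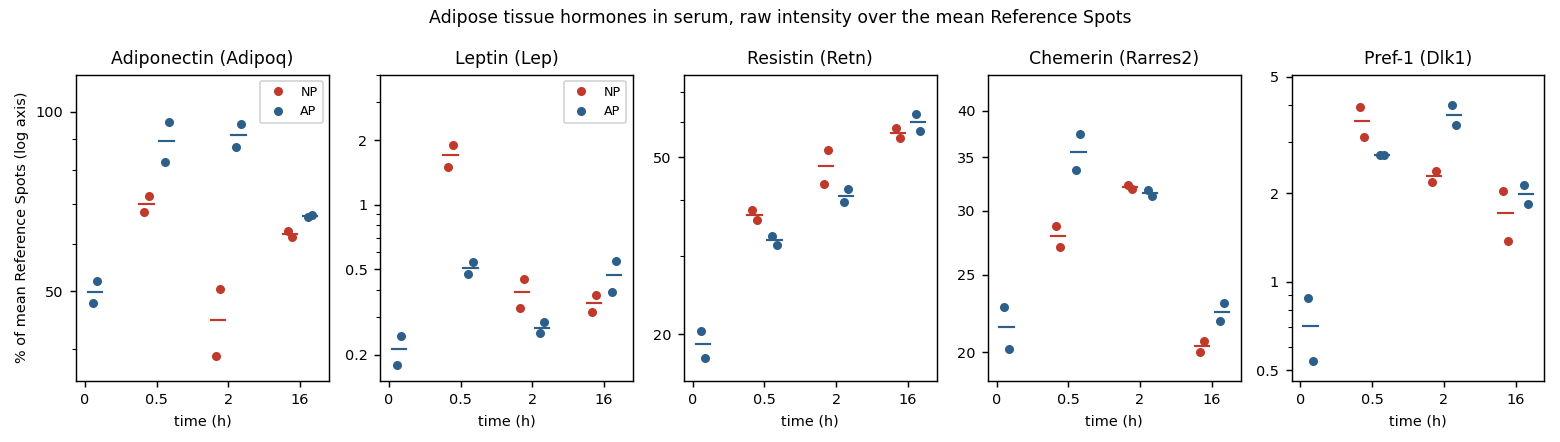
Raw intensity of the 5 hormones as a percentage of the mean Reference Spots of the same membrane (log axis, each panel with its own range) by time, NP in red and AP in blue, 1 point per sample and a bar at the mean of 2. Resistin climbs with time on this scale to 58.3% and 55.3% in NP serum and 62.7% and 57.4% in AP serum at 16 h. The mean of Adiponectin is lowest in NP serum at 2 h. Its samples there, at 39.0% and 50.4%, overlap those of AP 0 h, at 47.9% and 52.0%.

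The members have to be read against the whole array, on which most analytes moved together. At 0.5 h, 3 of the 5 members (Leptin, Resistin and Pref-1) were higher and 0 lower in NP than in AP serum on the normalized scale, where 44.1% of all analytes were called higher and 5.41% lower. With reference scaling, only Leptin was higher while Adiponectin and Chemerin were lower, where 12.6% and 21.6% of all analytes were called higher and lower. At 2 h, 0 members were higher and 4 lower on the normalized scale, against 3.6% and 86.5% of all analytes. With reference scaling at 2 h, Resistin was higher and Adiponectin and Pref-1 were lower, beside 9.91% and 63.1% of all analytes. At 16 h, 0 members were higher and all 5 lower on the normalized scale, against 8.11% and 52.3% of all analytes, and the 5 include Leptin, which was not above its negative control. With reference scaling 0 members were called at 16 h by limma, and 0 also at an unadjusted p under 0.05, where 20.7% and 17.1% of all analytes were called higher and lower. The median log2 difference of all analytes at 0.5, 2 and 16 h was 0.42, -1.23 and -0.52 on the normalized scale and -0.02, -0.70 and -0.02 with reference scaling. The median of the 5 members was 0.62, -0.50 and -0.64 on the first and 0.19, 0.03 and -0.14 on the second.

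Other ways to even out the membranes gave further splits. Median scaling divides by the median analyte of a membrane, quantile normalization gives every membrane the same distribution, and plane scaling divides by a plane fitted through the Reference Spots in 3 corners of the membrane. With median scaling the members split into 1 higher and 2 lower at 0.5 h (2.7% and 44.1% of all analytes), 3 and 0 at 2 h (45.0% and 11.7%), and 0 and 5 at 16 h (4.5% and 72.1%). With quantile normalization they split into 2 higher and 1 lower at 0.5 h (12.6% and 15.3% of all analytes), 3 and 1 at 2 h (27.0% and 27.9%), and 0 and 0 at 16 h (18.9% and 21.6%). With plane scaling the counts were 1 higher and 1 lower at 0.5 h (6.31% and 41.4% of all analytes), 1 and 3 at 2 h (5.41% and 81.1%), and 0 and 0 at 16 h (19.8% and 15.3%). Leptin was higher in NP serum at 0.5 h on all 3 of these scales, with log2 differences of 1.18, 1.47 and 1.54 (limma adjusted p = 0.024, 0.0095 and 0.0011). At 2 h Leptin was called higher in NP serum with median scaling and quantile normalization (1.88 and 1.47, limma adjusted p = 2.9e-04 and 0.0041) but not with plane scaling (0.15, limma adjusted p = 0.67). Adiponectin was lower in NP serum at 2 h with quantile normalization and plane scaling (log2 differences -0.58 and -0.42, limma adjusted p = 1.9e-05 and 3.4e-04) but not with median scaling (0.31, limma adjusted p = 0.21). Chemerin at 2 h was called higher in NP serum on all 3 of these scales, in contrast to its lower normalized value. Its log2 differences were 1.38, 0.54 and 0.27 with median scaling, quantile normalization and plane scaling (limma adjusted p = 2.3e-06, 5.3e-05 and 0.0075). Resistin, which lies near the corner of the membrane that holds no Reference Spots, had log2 differences of -1.33 at 0.5 h and -1.17 at 2 h with plane scaling.

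**Figure D3:**
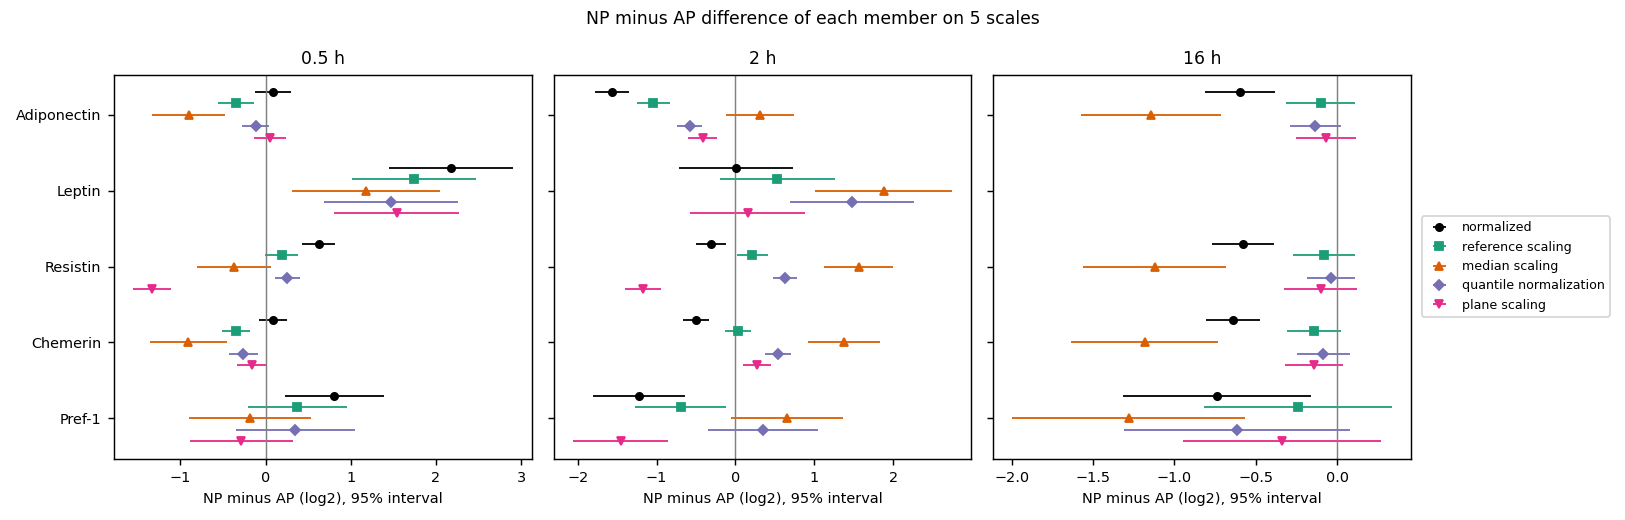
Log2 difference of each hormone, NP minus AP, at 0.5, 2 and 16 h on 5 scales, with 95% intervals from limma (2 samples per group). Leptin lies right of 0 at 0.5 h on all 5 scales, Adiponectin lies left of 0 at 2 h on all but median scaling, and Leptin at 16 h is left out because it was not above the negative control.

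For members well above the negative control, the ratio of 2 members on the same membrane cancels a factor that is common to the whole membrane, although it still depends on where the spots lie. These ratios were chosen after the values were seen and are given as a description. Leptin over Adiponectin at 0.5 h was 2.22% and 2.62% in NP serum, against 0.574% and 0.561% in AP serum. The NP values were also the higher ones with plane scaling (2.08% and 2.56% against 0.854% and 0.796%) and with the negative control of each membrane subtracted (1.91% and 2.36% against 0.388% and 0.468%). At 2 h, where Leptin lay near its negative control, this ratio as measured was 0.843% and 0.895% in NP serum and 0.287% and 0.298% in AP serum. With plane scaling it was 0.446% and 0.541% against 0.335% and 0.328%. With the negative control subtracted it was 0.170% and 0.694% in NP serum and 0.0615% and 0.202% in AP serum, and the groups overlapped. Chemerin over Adiponectin was 82.9% and 63.4% in NP serum at 2 h, against 36.4% and 32.8% in AP serum, and 68.0% and 55.2% against 40.4% and 36.0% with plane scaling. At 0.5 h and 16 h this ratio overlapped between NP and AP, at 42.4% and 37.5% against 40.8% and 39.0%, and at 31.8% and 33.6% against 32.8% and 34.4%. With plane scaling it did not overlap and was lower in NP serum at both times, at 42.4% and 37.6% against 47.4% and 45.3% at 0.5 h, and at 30.3% and 31.8% against 32.0% and 33.4% at 16 h. Resistin over Adiponectin was 111% and 103% in NP serum at 2 h, against 45.4% and 44.4% in AP serum, but with plane scaling the order turned to 64.2% and 71.0% in NP serum against 117% and 111% in AP serum. At 0.5 h it was 56.1% and 50.0% in NP serum and 40.4% and 33.2% in AP serum, and with plane scaling 61.1% and 53.2% against 152% and 146%. At 16 h the ratios overlapped, at 92.4% and 89.6% in NP serum and 94.1% and 85.6% in AP serum.

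**Figure D4:**
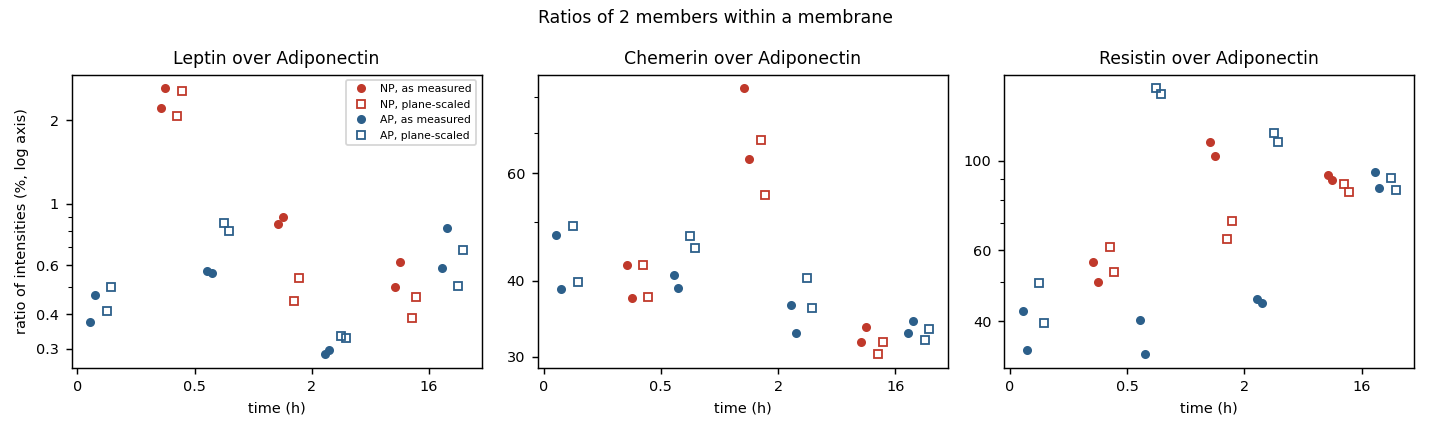
Ratio of Leptin, Chemerin and Resistin to Adiponectin on the same membrane (%, log axis) by time, NP in red and AP in blue, filled points as measured and open squares with plane scaling. Leptin over Adiponectin at 0.5 h and Chemerin over Adiponectin at 2 h are higher in NP serum in both forms, whereas the order for Resistin over Adiponectin at 0.5 h and 2 h turns with plane scaling. Leptin was near its negative control at 2 h and not above it at 16 h.

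Against AP 0 h, the direction of nearly every member depended on whether the brighter membranes of that time were scaled. At AP 0 h Adiponectin read 78078 and 84862, Chemerin 37151 and 32906, Resistin 33200 and 28784, Pref-1 1433 and 874, and Leptin 292 and 400. On the normalized scale, 1 member was higher and 3 lower at NP 0.5 h (18.0% and 55.0% of all analytes), 0 and 5 at NP 2 h (4.5% and 91.0%), and 0 and 5 at NP 16 h (6.31% and 76.6%). In AP serum 0 were higher and 4 lower at AP 0.5 h (12.6% and 62.2% of all analytes), 0 and 4 at AP 2 h (16.2% and 57.7%), and 0 and 5 at AP 16 h (8.11% and 71.2%). With reference scaling the counts were 5 higher and 0 lower at NP 0.5 h (84.7% and 3.6% of all analytes), 4 and 0 at NP 2 h (62.2% and 9.91%), and 3 and 0 at NP 16 h (82.0% and 5.41%). They were 5 and 0 at AP 0.5 h (87.4% and 2.7%), 4 and 0 at AP 2 h (86.5% and 2.7%), and 4 and 0 at AP 16 h (86.5% and 5.41%). Between the scales the direction of most analytes turned as it did for the members, and the counts at 16 h include Leptin, which was not above its negative control there.

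The members nevertheless differed from each other in their time courses. Adiponectin over AP 0 h on the normalized scale had log2 differences of -1.42, -2.97 and -2.86 in NP serum at 0.5, 2 and 16 h and of -1.51, -1.40 and -2.27 in AP serum. Chemerin had -1.53, -2.21 and -3.26 in NP serum and -1.62, -1.71 and -2.62 in AP serum, so its normalized level at 16 h was 9.56-fold lower in NP serum and 6.14-fold lower in AP serum than at AP 0 h. Resistin stayed nearer to AP 0 h at 16 h, with -0.94, -1.47 and -1.60 in NP serum and -1.56, -1.16 and -1.02 in AP serum. As shares of the Reference Spots, Resistin was at 20.4% and 17.7% at AP 0 h, then averaged 37.1% ± 1.42 (SD, n = 2), 47.7% ± 5.94 and 56.8% ± 2.13 in NP serum and 32.6% ± 1.06, 41.0% ± 1.92 and 60.0% ± 3.73 in AP serum at 0.5, 2 and 16 h. Its shares were thus higher at each later time in both arms without overlap. With plane scaling, however, the AP log2 differences of Resistin over AP 0 h ran the other way, at 2.23, 1.99 and 1.51. The NP differences with plane scaling were 0.90, 0.82 and 1.40, with no rise from 0.5 h to 2 h. Adiponectin averaged 50.0% ± 2.94 at AP 0 h, then 70.0% ± 3.05, 44.7% ± 8.05 and 62.3% ± 0.974 in NP serum and 89.2% ± 9.49, 91.3% ± 5.64 and 66.8% ± 0.303 in AP serum, and the AP 0.5 h and AP 2 h values did not differ beyond their spread. Chemerin averaged 21.5% ± 1.84 at AP 0 h, then 27.9% ± 1.21, 32.2% ± 0.260 and 20.4% ± 0.464 in NP serum and 35.5% ± 2.61, 31.6% ± 0.374 and 22.5% ± 0.850 in AP serum, back within its spread of AP 0 h at 16 h.

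Leptin and Pref-1 were the members that were not lower than AP 0 h in NP serum at 0.5 h on the normalized scale. Leptin was 2.14-fold higher there than at AP 0 h (log2 difference 1.10 ± 0.34 (SE), limma adjusted p = 0.0088), and 8.04-fold higher on the reference scale (3.01, limma adjusted p = 5.6e-07). The normalized call was lost without the second NP 0.5 h sample (0.94, limma adjusted p = 0.069) and without the first AP 0 h sample (0.87, limma adjusted p = 0.074). On the normalized scale, Leptin in NP serum was 3.77-fold lower at 2 h than at AP 0 h (limma adjusted p = 6.5e-05). In AP serum it was 2.11-fold lower at 0.5 h and 3.78-fold lower at 2 h (limma adjusted p = 0.0097 and 9.6e-05). The direction turned on the reference scale, with log2 differences of 0.88 at NP 2 h and 1.27 at AP 0.5 h (limma adjusted p = 0.031 and 0.0025). At AP 2 h the reference-scale difference was 0.35 and did not pass (limma adjusted p = 0.34). At 16 h, where Leptin was not above the negative control, it was at least 3.89-fold lower in NP serum and at least 1.40-fold lower in AP serum than at AP 0 h on the normalized scale, and no bound could be given on the reference scale. Pref-1 had normalized log2 differences over AP 0 h of 0.45, -1.06 and -1.89 in NP serum at 0.5, 2 and 16 h. In AP serum they were -0.36, 0.16 and -1.16. Those at NP 2 h, NP 16 h and AP 16 h passed (limma adjusted p = 0.0016, 8.0e-06 and 0.0012). On the reference scale Pref-1 was called higher than AP 0 h in every later group. The log2 differences at 0.5, 2 and 16 h were 2.35, 1.74 and 1.29 in NP serum (limma adjusted p = 6.8e-07, 2.9e-05 and 3.9e-04). In AP serum they were 1.98, 2.43 and 1.53 (limma adjusted p = 4.8e-06, 3.6e-07 and 7.5e-05). In normalized intensity the NP 0.5 h samples of Pref-1, 1718 and 1354, overlapped those of AP 0 h, 1433 and 874.

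The difference between NP and AP was itself compared between times. From 0.5 h to 2 h it shifted down for all 5 members on the normalized scale, with 0 called higher and 5 lower against 3.6% and 84.7% of all analytes. The shifts were -1.66 for Adiponectin, -2.17 for Leptin, -0.94 for Resistin, -0.59 for Chemerin and -2.03 for Pref-1 (limma adjusted p = 2.2e-08, 5.9e-04, 4.7e-06, 1.3e-04 and 1.3e-04). The size of the Leptin shift is uncertain on either scale. At 2 h the first NP and the first AP sample of Leptin were only 1.25 and 1.27 times their negative controls. With reference scaling, Adiponectin (-0.69), Leptin (-1.21) and Pref-1 (-1.07) were called lower and Chemerin (0.37) higher (limma adjusted p = 6.0e-04, 0.035, 0.022 and 0.0076), beside 57.7% and 13.5% of all analytes called lower and higher, whereas Resistin (0.03) was not called (limma adjusted p = 0.88). From 2 h to 16 h, Adiponectin was the 1 member called, and it shifted up by 0.97 on the normalized scale and 0.94 with reference scaling (limma adjusted p = 1.9e-05 and 2.7e-05). All analytes were then called higher and lower at 51.4% and 8.11% on the normalized scale and 50.5% and 8.11% with reference scaling.

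Proteins of related origin were described by counts between NP and AP, to be read beside the shares of all analytes. At 0.5, 2 and 16 h, 44.1%, 3.6% and 8.11% of all analytes were called higher in NP serum on the normalized scale. The shares called lower were 5.41%, 86.5% and 52.3%. With reference scaling they were 12.6%, 9.91% and 20.7% higher and 21.6%, 63.1% and 17.1% lower. The 5 other proteins that fat tissue secretes and that are described here were adipsin (Cfd), Rbp4, Lcn2, PEDF (Serpinf1) and Dpp4. The numbers higher in NP serum were 2, 0 and 0 and the numbers lower 0, 5 and 3 at 0.5, 2 and 16 h on the normalized scale, and with reference scaling 0, 0 and 2 were higher and 1, 5 and 0 lower. Adipsin, a complement protease made by fat cells, was lower in NP serum at 2 h on both scales (log2 differences -1.20 and -0.67, limma adjusted p = 8.0e-11 and 1.3e-07). The median log2 difference of all analytes at 2 h was near these values, at -1.23 and -0.70. Among 3 liver-derived metabolic regulators (Fgf21, Ahsg and Igfbp1), the numbers higher in NP serum were 2, 0 and 1 and the numbers lower 0, 3 and 2 on the normalized scale, in the same order of times, and 1, 0 and 1 higher and 1, 1 and 1 lower with reference scaling. FGF21, a hormone that the liver releases in fasting and stress and that acts on fat, was higher in NP serum at 0.5 h and lower at 2 h on both scales (1.30 and -3.35 on the normalized scale, limma adjusted p = 0.0016 and 1.9e-08). At 16 h FGF21 was again higher in NP serum, by 2.60 on the normalized and 3.09 on the reference scale (limma adjusted p = 1.1e-06 and 2.9e-07). The 8 plasma proteins gave 5, 1 and 0 higher and 0, 7 and 8 lower on the normalized scale, and 0, 1 and 0 higher and 2, 5 and 3 lower with reference scaling. For 4 platelet contents, which clotting releases into serum, the numbers were 3, 0 and 1 higher and 0, 4 and 1 lower on the normalized scale, and 1, 0 and 2 higher and 0, 2 and 0 lower with reference scaling. For 3 neutrophil granule proteins they were 1, 0 and 1 higher and 0, 3 and 0 lower on the normalized scale, and 0, 0 and 3 higher and 1, 2 and 0 lower with reference scaling. Not all listed proteins lay above the negative control in every sample. At AP 16 h, 4 of the 5 other fat proteins, 2 of the 4 platelet contents and 2 of the 3 neutrophil proteins did. At NP 2 h, 2 of the 4 platelet contents did. The platelet counts at 2 h and the counts of these lists at 16 h therefore include values not above the control. These lists share members, so their counts are not independent. Adipsin, Rbp4, PEDF and Ahsg are also among the 8 plasma proteins, and Lcn2 is also among the neutrophil granule proteins. The part of clotting or of neutrophils in the hormone values was not tested.

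The analytes whose time courses were most like those of the members were named by Pearson's r over the 7 group means of log2 intensity after median scaling, a description in which all points share the membranes and the scaling. For Chemerin they were Chitinase 3-like 1 (r = 0.99) and Endostatin (r = 0.97), and BAFF was among the first 2 for Adiponectin (r = 0.98). Resistin was closest to VEGF (r = 0.99) and LIX (r = 0.98), a neutrophil chemokine. For Leptin they were IL-1alpha (r = 0.80) and WISP-1 (r = 0.79). With reference scaling, VEGF (r = 0.98 with Resistin) and WISP-1 (r = 0.70 with Leptin) were again among the first 2, whereas BAFF, Chitinase 3-like 1, Endostatin, LIX and IL-1alpha were not. Chemerin and Chitinase 3-like 1 are neighbouring spots on the membrane, and Resistin and VEGF lie close together. Endostatin and LIX lie further from Chemerin and Resistin. The part of spot position in these correlations was not tested. Between the members, r on the median scaling was highest for Adiponectin with Chemerin, at 0.90, and lowest for Leptin with Resistin, at 0.49.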

How the data were processed

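Serum proteins were measured on Mouse XL cytokine array membranes in 7 groups of 2 samples. Each deposited file gives a raw intensity from ImageJ and a normalized intensity, for which the authors scaled the brighter sample of a group down to the Reference Spots of the other. That factor does not even out groups. The fold columns hold the authors' own comparison with AP 0 h and were not used. Whether a background was subtracted is not given in the sources used here. The negative control was multiplied by the same factor.

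Log2 normalized intensities of 111 analytes were fitted with limma 3.58.1 (R 4.3.3; group means over all 14 samples, trended variances, Benjamini-Hochberg adjustment over the 111 analytes, threshold 0.05). The script was tested on simulated data. Alternatives were raw intensities, reference, median, plane and quantile scaling, the negative control subtracted (floor 1% of the sample median), an offset of 1% of the mean Reference Spots, the dimmest analytes left out (quantile 0.25), no trend, only the groups compared, a replicate block, each sample left out, and the methods' t-test. A fit without the 0 h samples, the plane scaling of ratios and the Leptin ratio with the negative control subtracted were added after seeing the data.

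A group with no sample above the negative control was given only a bound, the mean of the brighter group against the higher of the dim value and the lowest analyte above the control, per sample. All 5 members were named at every time, with fixed lists (other fat proteins, liver-derived regulators, platelet contents, neutrophil granule proteins, plasma proteins) and the 2 most similar analytes per member. Some analytes of the lists and of the most similar ones are not reported here, and the list counts leave them out. Members and lists were chosen with earlier results of these data known. No protein sequences were used here.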

Additional observations from a re-analysis of the deposited data

Results flagged for a closer look

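Results are listed here where the NP minus AP difference itself differed between times in the limma fit on the normalized scale. From 0.5 h to 2 h the log2 difference shifted by -1.66 for Adiponectin, -2.17 for Leptin, -0.94 for Resistin, -0.59 for Chemerin and -2.03 for Pref-1, beside 84.7% of all analytes called lower. From 2 h to 16 h it shifted by 0.97 for Adiponectin, beside 51.4% of all analytes called higher. Leptin lay near its negative control at 2 h, so the size of its shift is uncertain. The membranes of NP 2 h had Reference Spots that differed up to 2.97-fold between corners, the widest of any group, and the part of that spread in these shifts was not tested. Groups of 2 samples are too small to look for a sample that stands apart.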

How the results depend on the processing

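On raw intensities, every NP against AP difference named in the report kept its normalized-scale direction. Fits without the 0 h samples (an alternative added after seeing the data), with no trend and with only the groups compared cannot change a log2 difference. They change only its standard error and p, so their unchanged direction carries no information. Leptin at 0.5 h was higher in NP serum under all 16 alternatives, from 1.18 to 2.40, and lost its call only in the methods' t-test (adjusted p = 0.07). Among the 16, the fits just named that cannot change a log2 difference, and the replicate block, leave the Leptin value as it was by design. The labels do not say that a replicate number marks a shared experiment, and same-numbered deviations correlated at -0.18 to 0.50 over 21 pairs of groups, 14 of them over 0.1, so the numbers were not taken as pairing the samples and whether they share an experiment was not settled. A fit with the replicate number as a block changed no count of members called but one, 1 lower for the NP minus AP difference at 16 h minus 2 h. The methods' t-test put 2, 3 and 3 members past its threshold at 0.5, 2 and 16 h, and 1, 3 and 3 after Benjamini-Hochberg adjustment.

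The signs of single members turned as follows, as log2 differences. For NP against AP at 0.5 h, the sign turned to -0.35 for Adiponectin and -0.35 for Chemerin with reference scaling, to -0.90 for Adiponectin, -0.37 for Resistin, -0.91 for Chemerin and -0.19 for Pref-1 with median scaling, to -0.12 for Adiponectin and -0.26 for Chemerin with quantile normalization, to -0.019 for Adiponectin without AP 0.5 h replicate 1 and to -1.33 for Resistin, -0.16 for Chemerin and -0.29 for Pref-1 with plane scaling. For NP against AP at 2 h, the sign turned to 0.31 for Adiponectin, 1.56 for Resistin, 1.38 for Chemerin and 0.65 for Pref-1 with median scaling, to -0.38 for Leptin with the negative control subtracted, to -0.39 for Leptin with the offset, to -0.085 for Leptin without AP 2 h replicate 1, to -0.22 for Leptin without NP 2 h replicate 2, to 0.21 for Resistin and 0.028 for Chemerin with reference scaling, to 0.63 for Resistin, 0.54 for Chemerin and 0.35 for Pref-1 with quantile normalization and to 0.27 for Chemerin with plane scaling. For AP 0.5 h against AP 0 h, the sign turned to 0.83 for Adiponectin, 1.27 for Leptin, 0.78 for Resistin, 0.73 for Chemerin and 1.98 for Pref-1 with reference scaling, to 0.48 for Adiponectin, 1.34 for Leptin, 2.23 for Resistin, 0.55 for Chemerin and 2.52 for Pref-1 with plane scaling and to 0.11 for Resistin with quantile normalization. For AP 2 h against AP 0 h, the sign turned to 0.87 for Adiponectin, 0.35 for Leptin, 1.11 for Resistin and 0.56 for Chemerin with reference scaling, to 0.63 for Adiponectin, 0.18 for Leptin, 1.99 for Resistin and 0.42 for Chemerin with plane scaling, to 0.28 for Resistin and -0.51 for Pref-1 with quantile normalization, to -0.72 for Pref-1 with median scaling, to -0.80 for Pref-1 with the offset and to -0.19 for Pref-1 without AP 0 h replicate 2. For AP 16 h against AP 0 h, the sign turned to 0.42 for Adiponectin, 1.66 for Resistin, 0.067 for Chemerin and 1.53 for Pref-1 with reference scaling, to 0.53 for Adiponectin, 1.51 for Resistin, 0.089 for Chemerin and 1.29 for Pref-1 with plane scaling, to 0.41 for Resistin and 0.28 for Pref-1 with median scaling and to 0.71 for Resistin with quantile normalization. For NP 0.5 h against AP 0 h, the sign turned to 0.49 for Adiponectin, 0.97 for Resistin and 0.38 for Chemerin with reference scaling, to 0.54 for Adiponectin, 0.90 for Resistin and 0.39 for Chemerin with plane scaling, to -0.76 for Leptin and -0.50 for Pref-1 with the offset, to 0.36 for Resistin and -0.49 for Pref-1 with quantile normalization and to -0.25 for Pref-1 with median scaling. For NP 2 h against AP 0 h, the sign turned to 0.22 for Adiponectin, 0.33 for Leptin, 0.82 for Resistin, 0.69 for Chemerin and 1.14 for Pref-1 with plane scaling, to 0.88 for Leptin, 1.33 for Resistin, 0.58 for Chemerin and 1.74 for Pref-1 with reference scaling and to 0.12 for Leptin and 0.91 for Resistin with quantile normalization. For NP 16 h against AP 0 h, the sign turned to 0.32 for Adiponectin, 1.58 for Resistin and 1.29 for Pref-1 with reference scaling, to 0.46 for Adiponectin, 1.40 for Resistin and 0.95 for Pref-1 with plane scaling and to 0.67 for Resistin with quantile normalization. For the NP minus AP difference at 2 h minus 0.5 h, the sign turned to 1.21 for Adiponectin, 0.70 for Leptin, 1.93 for Resistin, 2.28 for Chemerin and 0.84 for Pref-1 with median scaling, to 0.0052 for Leptin, 0.37 for Resistin, 0.81 for Chemerin and 0.0036 for Pref-1 with quantile normalization, to 0.026 for Resistin and 0.37 for Chemerin with reference scaling and to 0.16 for Resistin and 0.43 for Chemerin with plane scaling. For the NP minus AP difference at 16 h minus 2 h, the sign turned to -1.45 for Adiponectin and -1.93 for Pref-1 with median scaling, to 1.07 for Resistin with plane scaling and to -0.97 for Pref-1 with quantile normalization.

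Counts of members called that changed by more than 1.5 times are given first. With reference scaling the calls were 1 higher and 2 lower for NP against AP at 0.5 h, 1 higher and 2 lower for NP against AP at 2 h, 0 lower for NP against AP at 16 h, 5 higher and 0 lower for AP 0.5 h against AP 0 h, 4 higher and 0 lower for AP 2 h against AP 0 h, 4 higher and 0 lower for AP 16 h against AP 0 h, 5 higher and 0 lower for NP 0.5 h against AP 0 h, 4 higher and 0 lower for NP 2 h against AP 0 h, 3 higher and 0 lower for NP 16 h against AP 0 h and 1 higher and 3 lower for the NP minus AP difference at 2 h minus 0.5 h. With median scaling the calls were 1 higher and 2 lower for NP against AP at 0.5 h, 3 higher and 0 lower for NP against AP at 2 h, 2 lower for AP 16 h against AP 0 h, 0 higher for NP 0.5 h against AP 0 h, 3 lower for NP 2 h against AP 0 h, 3 higher and 0 lower for the NP minus AP difference at 2 h minus 0.5 h and 0 higher and 5 lower for the NP minus AP difference at 16 h minus 2 h. With plane scaling the calls were 1 higher and 1 lower for NP against AP at 0.5 h, 1 higher for NP against AP at 2 h, 0 lower for NP against AP at 16 h, 5 higher and 0 lower for AP 0.5 h against AP 0 h, 4 higher and 0 lower for AP 2 h against AP 0 h, 4 higher and 0 lower for AP 16 h against AP 0 h, 5 higher and 0 lower for NP 0.5 h against AP 0 h, 4 higher and 0 lower for NP 2 h against AP 0 h, 3 higher and 0 lower for NP 16 h against AP 0 h, 1 higher and 3 lower for the NP minus AP difference at 2 h minus 0.5 h and 3 higher and 1 lower for the NP minus AP difference at 16 h minus 2 h. Under the methods' t-test, adjusted, the calls were 1 higher for NP against AP at 0.5 h and 3 lower for NP against AP at 16 h. With quantile normalization the calls were 1 lower for NP against AP at 0.5 h, 3 higher and 1 lower for NP against AP at 2 h, 0 lower for NP against AP at 16 h, 2 lower for AP 0.5 h against AP 0 h, 1 higher for AP 2 h against AP 0 h, 1 higher and 3 lower for AP 16 h against AP 0 h, 2 higher for NP 0.5 h against AP 0 h, 1 higher and 1 lower for NP 2 h against AP 0 h, 1 higher and 3 lower for NP 16 h against AP 0 h, 2 higher and 1 lower for the NP minus AP difference at 2 h minus 0.5 h and 3 lower for the NP minus AP difference at 16 h minus 2 h. With the negative control subtracted the calls were 3 lower for NP against AP at 16 h and 0 higher for NP 0.5 h against AP 0 h. With the offset the calls were 0 higher and 5 lower for NP 0.5 h against AP 0 h. With the dimmest analytes left out, the calls were 0 higher for NP 0.5 h against AP 0 h, since Leptin was then among the analytes left out. On raw intensities the calls were 1 lower for the NP minus AP difference at 16 h minus 2 h. Without a trend the calls were 1 lower for the NP minus AP difference at 16 h minus 2 h. With the replicate block the calls were 1 lower for the NP minus AP difference at 16 h minus 2 h. Leaving out 1 sample at a time gave 3 to 4 members lower for NP against AP at 16 h, 0 to 1 higher for NP 0.5 h against AP 0 h, and 0 to 1 lower for the NP minus AP difference at 16 h minus 2 h. Another 26 counts changed by 1 member, 7 of them with 1 sample left out. Among these, with the offset 5 instead of 4 members were lower for NP against AP at 2 h, AP 0.5 h against AP 0 h and AP 2 h against AP 0 h. For NP against AP at 0.5 h, 2 instead of 3 members were higher with the negative control subtracted, with quantile normalization, with the dimmest analytes left out and in 3 of the fits with 1 sample left out. For NP against AP at 2 h, 3 instead of 4 were lower with plane scaling, in the methods' t-test and without NP 2 h replicate 1. Chemerin over Adiponectin on the same membrane, NP against AP as log2, turned to -0.21 at 0.5 h with plane scaling. Resistin over Adiponectin turned to -1.38 at 0.5 h, -0.75 at 2 h and -0.0336 at 16 h with plane scaling. For NP against AP, leaving out 1 sample gave -0.019 to 0.20 for Adiponectin at 0.5 h and -0.22 to 0.23 for Leptin at 2 h, and for AP 2 h against AP 0 h -0.19 to 0.52 for Pref-1. The causes of these changes were not tested.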
